A study of Gallus gallus with 16 samples.

Results

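The comparison of double-positive (DP) with negative cells at stage HH18 of chick development covered 4 of the 16 libraries of an RNA-seq study of the vagal neural crest, 2 of each group, chosen by their column labels in the count table. All embryos were wild-type chicken (Gallus gallus). The vagal region had been electroporated at HH8 or HH9 with reporters of the enhancers NC2 and E2. It was dissociated at HH18 and sorted by fluorescence. DP cells were labelled as NC2+ and E2+, and negative cells came from the same electroporated regions without either signal. The same groups at HH25, also electroporated at HH8 or HH9, and cells at HH18 with E2 signal alone (E2) were used beside them. E2 cells at HH25 and the earliest-stage E2 and negative cells, labelled HH10 and electroporated at HH4, also entered the fit of all 16 libraries. Electroporation reaches part of the cells of a region and a reporter marks cells in which its enhancer was active, so the negative group may hold unlabelled crest cells as well as other cells. The labels do not say which cell types it held, and they do not tie the 2 libraries of each group to different embryos or pools. The replicate spread behind the p-values is that between libraries and could be technical.

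The neural crest arises at the border of the neural plate, leaves the dorsal neural tube and migrates through the embryo. Its vagal part, beside the caudal hindbrain, gives rise to most of the enteric nervous system and to cells of the outflow tract of the heart. NC2 is known as a FOXD3 enhancer and E2 as a SOX10 enhancer, and both genes encode transcription factors of crest cells. The table carries gene identifiers without names, and 0 of its 24881 identifiers matched the reference table of chicken genes. FOXD3, SOX10 and markers of other cell types could therefore not be looked up, and the sorted cells were not checked against markers. Genes are given below by their position on the galGal5 build and, for the 2 genes at each end of the fold changes, by identifier. The other genes given by position were chosen after their values were seen.

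The negative libraries held 7692817 and 4032540 counts and the DP libraries 10838093 and 19164931, and the second negative library was the shallowest of the 16. Counts were found for 14174 and 13760 genes in the negative libraries and for 12472 and 13672 genes in the DP libraries. With each library thinned to 4032540 counts, the numbers were 13710 and 13760 against 12185 and 12938, so that more genes were detected in both negative libraries than in both DP libraries at equal depth.

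Of the 14676 genes tested, 68 differed between DP and negative cells, which is 0.463% of them (edgeR quasi-likelihood test, Benjamini-Hochberg adjusted p below 0.05). Most of the called genes were lower in DP cells. There were 54 lower genes, or 0.368% of those tested, and 14 higher genes, or 0.0954%. Both DP libraries lay beyond both negative libraries for each of these 68 genes, which the choice of genes by these same libraries favours. The share of all tested genes with such a separation was not counted. The median log2 fold change was -5.17 over the lower genes, with those without a count in DP cells set at their bound, and 3.12 over the higher genes, whereas the median over all tested genes was -1.5e-04. Many large fitted differences were not called. A log2 fold change below -2 was fitted for 1590 genes, of which 51 were called, and one above 2 for 816 genes, of which 11 were called.

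**Figure D1:**
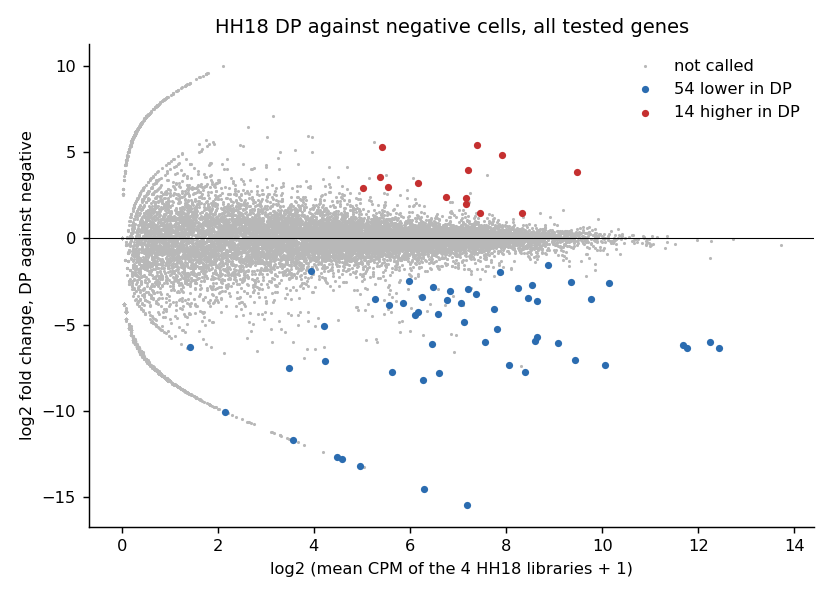
Log2 fold change of DP against negative cells at HH18 (vertical axis) against the log2 mean level of the 4 libraries in CPM (counts per 1e6 counts, scaled by TMM), with 1 added (horizontal axis), for 14676 tested genes as points. The 54 lower genes in blue reach further from 0 and higher levels than the 14 higher genes in red, and the curved edges are genes without counts in one of the groups.

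The number of calls changed with single libraries. Of the 54 lower genes, 15 were called in each of the 4 fits that left out 1 library, and 8 in none. Of the 14 higher genes, 0 were called in all 4 fits, 3 in 3 of them and 8 in none. Without the second negative library, 22 genes were lower and 0 higher by edgeR, where 139 genes were higher at an unadjusted p below 0.05 and no other tool was run on that set. The fit without the first DP library called 17 lower and 3 higher genes. Of those, 15 and 3 were among the 54 and the 14. Without the first negative library, 52 lower and 6 higher genes were called, of which 46 and 4 were among them. Without the second DP library, 51 lower and 9 higher genes were called, and 26 and 5 of these were among them, so that many calls were of different genes.

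The lower genes took up a visible part of the negative libraries. Their counts made up 3.13% and 6.74% of all counts in the negative libraries and 0.201% and 0.207% in the DP libraries. In counts per 1e6 counts after TMM scaling (CPM), the median level of a lower gene was 152 and 357 CPM in the negative libraries, and 11.5 and 10.4 CPM in the DP libraries. In bulk samples, fewer cells of a type and less RNA per cell cannot be told apart. No marker list could be read beside these genes, so the part of other cell types in the negative group was not tested.

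The 4 lower genes with the most counts lay in 2 places. On chromosome 14, 3 lower genes on the plus strand stood within 7530 bases at chr14:12156905-12164434. Together they had 16872 and 37858 CPM in the negative libraries and 307 and 420 CPM in the DP libraries. They supplied 1.60% and 3.35% of all counts of the negative libraries and 0.0314% and 0.0399% of those of the DP libraries, and the groups lay far apart. The first of the 3, at chr14:12156905-12158534, had 5848 and 13353 CPM in negative and 135 and 160 CPM in DP cells, a log2 fold change of -6.02 (SE 0.66, edgeR adjusted p = 6.2e-04).

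The second, at chr14:12160597-12161521, had 4159 and 9589 CPM in negative and 87.8 and 78.8 CPM in DP cells (log2 fold change -6.37, SE 0.56, edgeR adjusted p = 1.8e-04). The last, at chr14:12163617-12164434, had 6864 and 14916 CPM in negative and 84.5 and 181 CPM in DP cells (log2 fold change -6.36, SE 0.69). The 3 fold changes thus differed by less than their standard errors. An antisense gene inside the first, at chr14:12157827-12158420, had 7 counts over the 4 libraries and was not called (edgeR adjusted p = 0.61).

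On chromosome 1, a pair of overlapping lower genes on the plus strand lay at chr1:194562710-194576539. They summed to 3774 and 9165 CPM in the negative libraries and to 82.4 and 97.1 CPM in the DP libraries. Reads of overlapping genes may be shared between them, so the pair is read as 1 signal. The gene with nearly all counts of the pair had a log2 fold change of -6.17 (SE 0.67, edgeR adjusted p = 6.2e-04), close to those on chromosome 14. In both places the second negative library was above the first. It held 2.24 times the CPM of the first for the 3 genes on chromosome 14 and 2.43 times for the pair on chromosome 1. This rests on a single difference between libraries that also entered the choice of the genes.

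**Figure D2:**
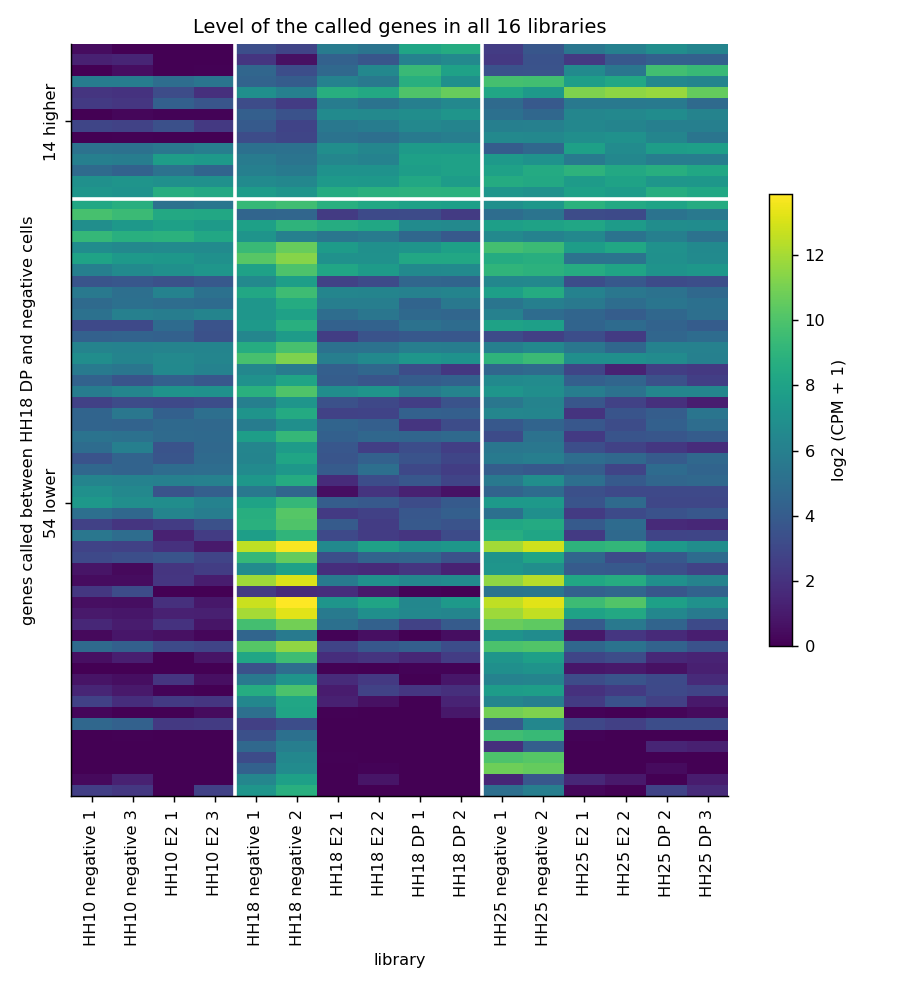
Level of the 68 called genes (rows, the 14 higher above and the 54 lower below, each with the largest fold change at the outer edge) in the 16 libraries (columns, set apart by stage), as colour on a log2 scale of CPM with 1 added. Most of the lower genes are bright in both HH18 negative libraries, brighter in the second, and dark in the DP and E2 libraries. A few are bright in E2 or DP libraries as well, and many are bright again in the HH25 negative libraries.

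Those 4 genes were among the 15 lower genes called in each fit that left out 1 library. A further gene at chr26:4699001-4704104 had 1195 and 3026 CPM in negative and 17.1 and 8.56 CPM in DP cells, with a log2 fold change of -7.37 (SE 0.66, edgeR adjusted p = 1.8e-04). The gene at chr2:123250307-123260107 had 378 and 964 CPM in negative and 3.61 and 2.69 CPM in DP cells, and the pooled counts gave a ratio of 188 (95% counting interval 152 to 234). In both genes the DP libraries lay far below the lower of the negative libraries.

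Chromosome 20 held 5 of the 54 lower genes, or 9.26%, against 2.43% of the tested genes, and 3 of these 5 were called in every fit with a library left out. At chr20:6889947-6899216 the levels were 296 and 758 CPM in negative and 1.80 and 4.44 CPM in DP cells. At chr20:11089454-11094495 they were 611 and 1523 CPM against 21.6 and 10.0 CPM. At chr20:12236702-12241896 they were 444 and 1041 CPM against 50 and 71.7 CPM, the smallest difference of the 3 (log2 fold change -3.61, SE 0.43, edgeR adjusted p = 0.0011). The 3 genes were not neighbours. Chromosome 20 was picked after the counts of all 21 chromosomes with a lower gene were seen. Chromosome 26 held 3 of the lower genes, or 5.56%, against 1.62% of the tested genes.

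The rest of the 15 showed the same order of libraries. At chr5:28954862-28959674 the levels were 446 and 1072 CPM in negative and 13.8 and 10.8 CPM in DP cells. At chr4:61121025-61141216 they were 410 and 1164 CPM against 12.5 and 17.3 CPM. At chr1:174548152-174560323 they were 385 and 905 CPM against 58.9 and 58.8 CPM, the smallest fold change of the 15 (log2 -3.45, SE 0.43, edgeR adjusted p = 0.0016). The second negative library was thus above the first for these genes too.

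At chr21:2221202-2229269 the levels were 261 and 611 CPM in negative and 8.39 and 14.4 CPM in DP cells, and at chr3:88727100-88737893 they were 104 and 241 CPM against 3.43 and 1.54 CPM. The gene with the fewest counts of the 15, at chr2:4020689-4022467, had 9.58 and 33.7 CPM in negative cells and no count in either DP library. It was at least 171-fold lower in DP cells, with the DP group set to 3 counts in all.

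Of the lower genes, 7 had no count in either DP library. The bounds of their folds ran from 61.1 to 2363. ENSGALG00000003323, at chr11:2658956-2694119, had 151 and 428 CPM in negative cells and 0 counts in both DP libraries, and was at least 2363-fold lower (edgeR adjusted p = 0.014). ENSGALG00000016498, at chr3:104544323-104575302, had 80.6 and 231 CPM in negative cells and 0 counts in both DP libraries, and was at least 1268-fold lower (edgeR adjusted p = 0.047). These 2 genes had the lowest fold changes of the comparison. With 1 library left out at a time, the adjusted p of ENSGALG00000003323 ran from 0.028 to 0.14 and that of ENSGALG00000016498 from 0.091 to 0.39, so that the call of the first ended without the second negative library (0.13) and without either DP library (0.14 and 0.089), and that of the second in each of the 4 fits.

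Another pair of neighbouring lower genes without counts in DP cells lay on the plus strand at chr3:107900662-107913428. They summed to 27.1 and 186 CPM in the negative libraries, a ratio of 6.86 between libraries of 1 group. Another gene beside them on the minus strand, at chr3:107914855-107917298, had 2.60 and 42.6 CPM in negative and 0.180 and 1.70 CPM in DP cells and was not called (log2 fold change -4.45, SE 1.21, edgeR adjusted p = 0.22). The negative libraries thus differed from each other in this neighbourhood far more than for a usual gene.

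On chromosome Z, a pair of lower genes at chrZ:380962-395438 had 1052 and 2662 CPM in the negative libraries and 171 and 149 CPM in the DP libraries. No run of 3 or more neighbouring tested genes was called in 1 direction, and the called genes that were direct neighbours among the tested genes formed 4 pairs, on chromosomes 1, 3 and Z and, with the second and last of the 3 genes, on chromosome 14. The first gene on chromosome 14 is parted from that pair by the uncalled antisense gene. The median exon length was 1612.5 bases over the lower and 1872 bases over the tested genes, and the median number of exon intervals 8.5 against 8. Among the called genes, 10 lower and 5 higher ones overlap another gene in the table, and whether counting used strand is not given in the sources used here. The share of all tested genes with such an overlap was not counted.

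The lower genes also separated the negative libraries from each other. In 50 of the 54 the second negative library was above the first, with a median ratio of 2.399, and in 37 genes the ratio lay between 2 and 3. Over the 12961 tested genes with counts in both negative libraries, 47.0% were above in the second, and the median ratio was 0.967. Of the 4321 tested genes whose mean in negative cells reached 50 CPM or more, 149 (3.45%) had a ratio between 2 and 3. The 37 were counted without this limit of level. Of the 149, 35 were themselves lower genes, and 146 had a log2 fold change below 0, against 2136 of the other 4172. The ratio is a description, since the same negative libraries entered the comparison that chose the lower genes and the range of 2 to 3 was taken from their values. The part of the second library's depth and makeup in the calls was not tested.

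**Figure D3:**
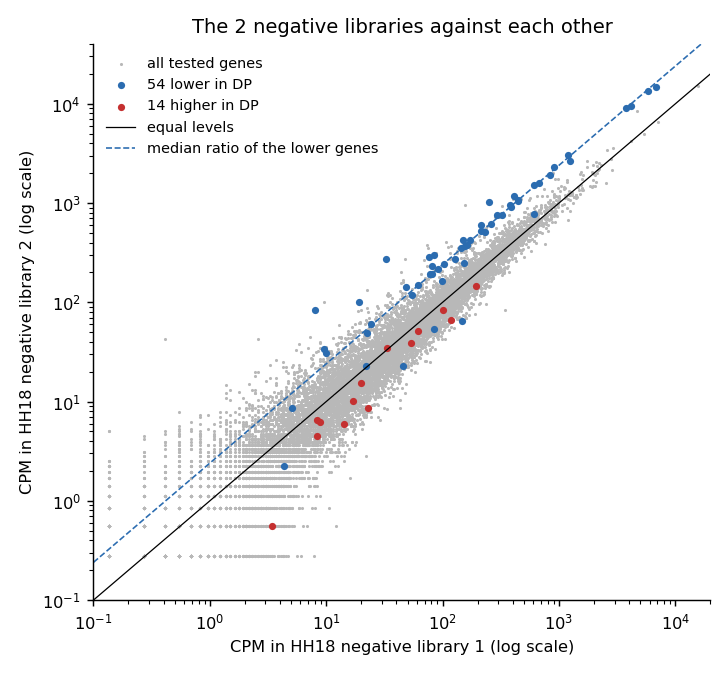
CPM in the second HH18 negative library (vertical axis, log scale) against the first (horizontal axis, log scale) for tested genes with counts in both. Most of the 54 lower genes in blue lie along the dashed line at their median ratio of 2.399, over 3 orders of magnitude in level, while the grey tested genes centre on the line of equal levels and the 14 higher genes in red lie mostly below it.

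Only 4 lower genes were below in the second negative library, with ratios of 0.443 to 0.643. At chr10:2519526-2529895 the levels were 146 and 64.8 CPM in negative and 23.8 and 13.6 CPM in DP cells. At chr4:60573777-60614242 they were 84.1 and 54.1 CPM against 8.21 and 3.79 CPM, and at chr3:31145552-31183812 they were 45.6 and 22.7 CPM against 1.44 and 0.604 CPM. These genes did not follow the common ratio, and they were chosen for being lower in DP cells in these same libraries. None of them was called in any fit with a library left out. The fourth, at chr10:11480809-11655680, had 4.38 and 2.24 CPM in negative cells and 0.0902 and 0 CPM in DP cells, a single count, which gives a pooled ratio of 108 with a counting interval of 18.3 to 4364.

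The 14 higher genes held fewer counts and had smaller fold changes. They summed to 664 and 479 CPM in the negative libraries and to 4233 and 4147 CPM in the DP libraries. The median level of a higher gene was 21.4 and 12.8 CPM in negative and 219 and 186 CPM in DP cells. In 13 of the 14 the second negative library was below the first, with a median ratio of 0.711, opposite to the lower genes. Over the tested genes with counts in both negative libraries, 47.0% were above in the second, and the median ratio was 0.967. This ratio too is a description, since the same libraries entered the comparison that chose the higher genes.

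ENSGALG00000008896, at chr7:14159350-14200241, had 281 and 370 CPM in DP and 8.89 and 6.17 CPM in negative cells, with a log2 fold change of 5.42 (SE 0.87, edgeR adjusted p = 0.014). The pooled counts gave a ratio of 42.0 (95% counting interval 34.0 to 52.5). ENSGALG00000008615, at chr5:24709933-24791051, had 70.2 and 91.7 CPM in DP and 3.42 and 0.561 CPM in negative cells, with a log2 fold change of 5.27 (SE 0.98, edgeR adjusted p = 0.033). Both were well above in each DP library, yet each call ended in each fit with a library left out, where the adjusted p ran from 0.056 to 0.33 for the first and from 0.068 to 0.43 for the second.

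The 3 higher genes called in 3 of the 4 such fits lay on other chromosomes. The gene at chr21:4407476-4411229 had 429 and 120 CPM in DP and 20.0 and 15.4 CPM in negative cells (log2 fold change 3.95, SE 0.52, edgeR adjusted p = 0.0022). That at chr2:26674819-26685279 had the most counts among the higher genes, with 1048 and 1625 CPM in DP and 117 and 65.9 CPM in negative cells (log2 fold change 3.87, SE 0.56). That at chr2:121898100-121903161 had 231 and 242 CPM in DP and 53.9 and 39.3 CPM in negative cells (log2 fold change 2.34, SE 0.35). The last was nearly equal between the DP libraries, whereas the first differed more than 3-fold between them.

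Of the other higher genes, that at chr1:51089596-51098755 had 677 and 248 CPM in DP and 22.8 and 8.69 CPM in negative cells. A gene at chr2:63495555-63509044 had 63.0 and 87.0 CPM in DP and 8.34 and 4.49 CPM in negative cells, and one at chr7:17923778-17925509 had 111 and 147 CPM against 17.1 and 10.1 CPM. In each of these the lowest DP library was at least 5 times the highest negative one. At chr2:24479856-24482255 the levels were 87.6 and 74.7 CPM in DP and 14.1 and 5.89 CPM in negative cells. At chr1:173156430-173157809 they were 50.9 and 60.5 CPM against 8.34 and 6.45 CPM.

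The remaining 4 higher genes had log2 fold changes of 2.42 or less. At chr3:57097209-57149346 the levels were 189 and 172 CPM in DP and 33.2 and 34.5 CPM in negative cells, and at chr4:66369835-66373520 they were 208 and 248 CPM against 62.0 and 51.9 CPM. At chr1:76988085-77010194, where other genes overlap, they were 314 and 199 CPM against 100 and 84.1 CPM (log2 fold change 1.48, SE 0.29, edgeR adjusted p = 0.037). At chr17:8076099-8103052 they were 473 and 463 CPM against 195 and 146 CPM (log2 fold change 1.46, SE 0.28, edgeR adjusted p = 0.031), the smallest fold change among the higher genes. This gene and the higher genes at chr21:4407476-4411229, chr2:26674819-26685279 and chr1:173156430-173157809 each overlap another gene as well.

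**Figure D4:**
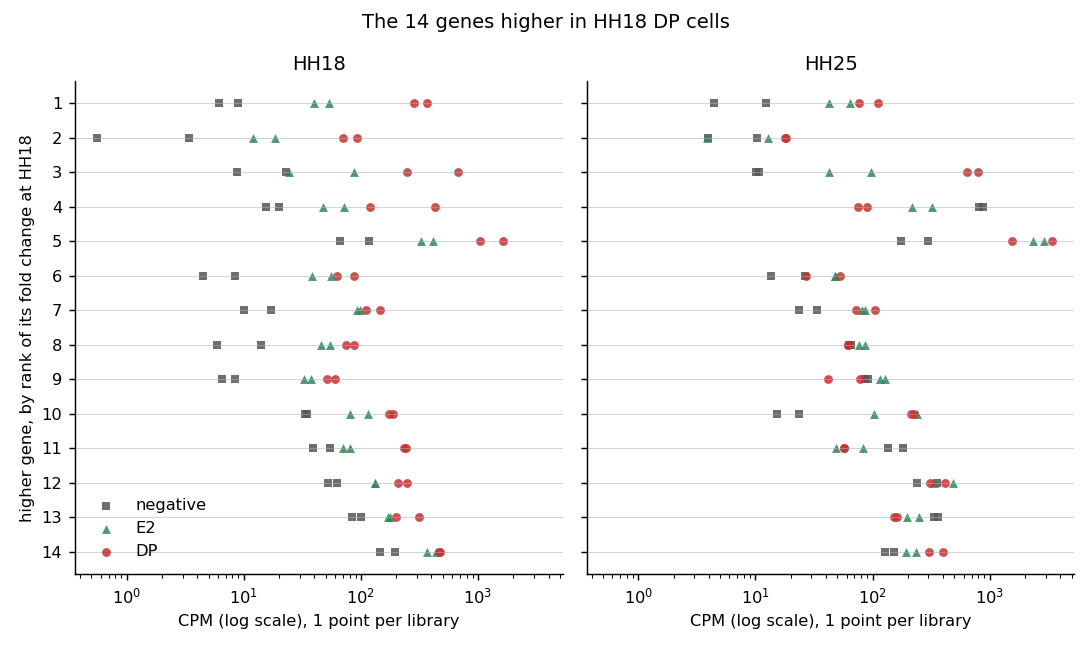
CPM (horizontal axes, log scale) of the 14 genes higher in DP cells, by rank of their fold change at HH18 (vertical axis), with 1 point per library of negative (squares), E2 (triangles) and DP cells (circles) at HH18 on the left and HH25 on the right. At HH18 the circles lie to the right of the squares in every gene, which the choice of genes favours. At HH25 the squares lie further right than at HH18 in 10 of the 14 genes. The choice of genes for low levels in the HH18 negative libraries favours this too. The HH25 squares lie right of the HH25 circles in the 3 genes called lower at HH25. They also do so in the genes of rank 8 and 9, which were not called at HH25.

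Levels in cells with E2 signal alone are given side by side only, since the contrasts of E2 with DP and of E2 with negative cells share libraries with the main comparison. The 54 lower genes summed to 2451 and 2635 CPM in the E2 libraries, against 1969 and 2181 CPM in the DP libraries. The 14 higher genes summed to 1683 and 1627 CPM in the E2 libraries, between the levels of negative and DP cells. ENSGALG00000008896 had 52.9 and 39.9 CPM in E2 cells and ENSGALG00000008615 had 18.5 and 12.1 CPM, in both cases above both negative and below both DP libraries. Their differences from DP cells did not pass the test (edgeR adjusted p = 0.20 and 0.37), and neither did those of E2 from negative cells (0.21 and 0.25).

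The same contrast at HH25, which shares no library with HH18, called 3465 genes, or 23.6% of those tested, with 2003 higher (13.6%) and 1462 lower (9.96%). Among the 54 genes lower at HH18, 34 were lower again at HH25, 2 were higher and 18 were not called. Among the 14 genes higher at HH18, 6 were higher again, 3 were lower and 5 were not called. The fold change had the same sign at both stages in 49 of the 54 and in 9 of the 14 genes. The share of equal signs over all tested genes was not computed. At HH25 the median log2 fold change over all tested genes was 0.18, and it was 0.03 with DESeq2 size factors.

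The genes on chromosomes 14 and 1 were lower at both stages by similar folds. The 3 genes on chromosome 14 summed to 13463 and 23058 CPM in HH25 negative and to 492 and 289 CPM in HH25 DP cells. In negative cells of the earliest stage, which the sample labels give as HH10 and the table as HH12 and which were electroporated at HH4, they summed to 7.30 and 6.61 CPM. The pair on chromosome 1 summed to 3188 and 5388 CPM in HH25 negative and to 126 and 73.0 CPM in HH25 DP cells. Between the stages the difference did not pass the test for any of the 3 genes on chromosome 14 (edgeR adjusted p from 0.44 to 0.91).

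In other places the HH18 negative cells held little of what the HH25 negative cells held. The pair at chr3:107900662-107913428 had 27.1 and 186 CPM in HH18 and 2816 and 2718 CPM in HH25 negative cells, with 0.313 and 0 CPM in HH25 DP cells. The gene at chr2:4020689-4022467 had 9.58 and 33.7 CPM in HH18 and 772 and 637 CPM in HH25 negative cells, and no count in any DP library at either stage. That at chr13:15273853-15278709 had 32.4 and 270 CPM in HH18 and 1918 and 2332 CPM in HH25 negative cells, against 0 and 0.878 CPM in HH18 DP cells. Over the 54 lower genes, both HH25 negative libraries were above both HH18 ones in 9 genes and below both in 29. The choice of genes for high levels in the HH18 negative libraries favours a lower level at HH25. The shares over all tested genes were not counted.

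The difference between the stages was itself called for 2124 genes, or 14.5% of those tested. It was called for 19 of the 54 lower and 8 of the 14 higher genes. In each of these 27 genes the difference between DP and negative cells was nearer 0 at HH25 or had turned. Both counts and this direction are descriptions, since the genes were chosen for a large difference at HH18 that enters the difference between stages. Stage and library batch cannot be told apart, since the labels give no batch. Over all tested genes the median of this difference was 0.36 on the log2 scale, and it was 0.20 with DESeq2 size factors.

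The gene at chr21:4407476-4411229 turned most among the higher genes. It had 870 and 810 CPM in HH25 negative and 89.0 and 75.5 CPM in HH25 DP cells, so that a log2 fold change of 3.95 at HH18 stood against -3.35 at HH25 (difference -7.30, SE 0.72, edgeR adjusted p = 8.6e-04). The gene at chr2:121898100-121903161 had 182 and 134 CPM in HH25 negative and 56.9 and 56.7 CPM in HH25 DP cells (difference -3.82, edgeR adjusted p = 0.0013). The gene at chr1:76988085-77010194 had 365 and 332 CPM in HH25 negative and 153 and 160 CPM in HH25 DP cells (difference -2.63, edgeR adjusted p = 0.0038). In all 3, both negative libraries were higher and both DP libraries lower at HH25 than at HH18. These 3 genes were picked for calls in opposite directions at HH18 and HH25. Their tests of the difference between stages were thus all but bound to pass and add no support of their own.

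The 2 lower genes called higher at HH25 showed the opposite. At chr1:71400742-71448774 the negative libraries had 80.3 and 193 CPM at HH18 and 7.96 and 5.27 CPM at HH25, while the DP libraries had 13.1 and 12.7 CPM at HH18 and 23.0 and 29.1 CPM at HH25. At chr2:102313605-102405919 the negative libraries had 613 and 779 CPM at HH18 and 117 and 159 CPM at HH25, and the DP libraries 241 and 226 CPM at HH18 and 266 and 367 CPM at HH25. In both genes the larger difference between stages was that of the negative cells.

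Among the higher genes called again at HH25, that at chr1:51089596-51098755 kept its distance, with 799 and 637 CPM in HH25 DP and 10.1 and 10.7 CPM in HH25 negative cells. The gene at chr2:26674819-26685279 had 3424 and 1537 CPM in HH25 DP against 295 and 173 CPM in HH25 negative cells. ENSGALG00000008896 had 111 and 76.4 CPM in HH25 DP and 4.43 and 12.2 CPM in HH25 negative cells, a log2 fold change of 3.51 (edgeR adjusted p = 0.0077), and its difference between the stages did not pass the test (-1.91, edgeR adjusted p = 0.24). ENSGALG00000008615 was not called at HH25, where DP cells had 18.2 and 17.8 CPM and negative cells 3.90 and 10.3 CPM.

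**Figure D5:**
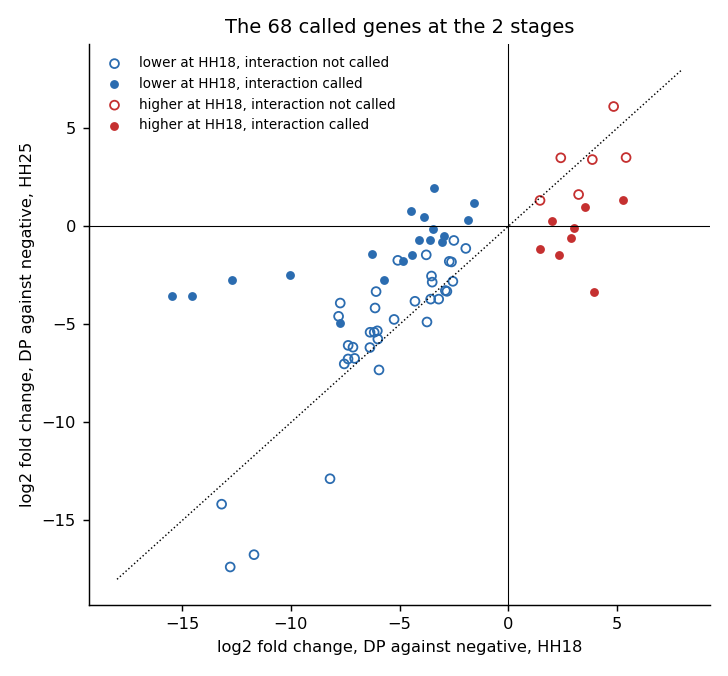
Log2 fold change of DP against negative cells at HH25 (vertical axis) against that at HH18 (horizontal axis) for the 68 genes called at HH18, blue for lower and red for higher genes, filled where the difference between stages was called. The dotted line marks equal fold changes, and the 27 filled points lie nearer 0 at HH25 or across it, which the choice of genes by their HH18 values favours. Points beyond -9 on either axis come from genes with few or no counts in DP cells, where the fitted value depends on the prior count.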

How the data were processed

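The authors deposited raw read counts per gene for 16 libraries in 1 table, whole numbers without normalization. Per the submitters' processing notes, the genome build was galGal5 and the tools were STAR 2.4.2a, featureCounts, Subread 1.4.5 and DESeq2; per the labels' protocols, RNA came from sorted cells and was amplified with a low-input kit. Whether counting used strand, and how multiply mapped reads were treated, is not given in the sources used here. Columns were mapped to samples by name; where a name gave the group and not the sample, it was used as a library of that group.

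Counts were tested here with edgeR's quasi-likelihood F test (version 4.0.16, R 4.3.3) after filterByExpr with default settings and TMM scaling. A single fit of all 16 libraries had 8 group means, which left 8 residual degrees of freedom. Calls used a Benjamini-Hochberg adjusted p below 0.05. SE is the log2 fold change divided by the square root of F. Counts per 1e6 counts (CPM) were scaled by TMM. Shares of counts used unscaled totals. Fold bounds set a group without counts to 3 counts over the group, taking the smaller of the values from pooled counts and from library means, and ratios of pooled counts carry an exact 95% binomial interval. Intervals and bounds cover counting error only, since amplified reads are not independent molecules. In fits with a library left out, the lone library of a group is assumed to vary like the other groups. The scripts were tested on simulated data.

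Genes were named among called genes whose groups did not overlap and whose higher group averaged 5 CPM or more. They were the 2 at each end of the log2 fold changes. Runs of 3 or more neighbouring genes called in 1 direction were also to be given, and none was found. The other genes given by position, neighbours included, were chosen after their values were seen. Gene lists of pathways and cell types could not be used without gene names, and no sequences were used here. The genes, groups and tests were chosen with earlier results of these data known. Alternatives were other size factors, other filters, DESeq2 1.42.0, fewer libraries, a replicate block, other thresholds and each library left out.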

Additional observations from a re-analysis of the deposited data

Results flagged for a closer look

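The difference between DP and negative cells changed with stage, by the test of the difference between HH25 and HH18, in 19 of the 54 lower and 8 of the 14 higher genes (edgeR adjusted p below 0.05), beside 14.5% of all tested genes. The genes were chosen by their HH18 difference, which is part of this test, so that choice alone favours a larger share and a smaller difference at HH25. Without the second HH18 negative library, these numbers were 7 and 4, and they were the same without the HH25 DP library that the table numbers 3.

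On the log2 scale, HH25 minus HH18, the difference was -3.92 for ENSGALG00000008615 (edgeR adjusted p = 0.047). It was 11.91 for ENSGALG00000003323 (edgeR adjusted p = 0.017) and 11.03 for ENSGALG00000016498 (edgeR adjusted p = 0.038), whose sizes depend on the prior count because the HH18 DP libraries had no count. With 1 library left out at a time, the adjusted p ran from 0.044 to 0.15, from 0.027 to 0.066 and from 0.029 to 0.9999 for these 3 genes, in that order.

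Among the genes called at both stages in opposite directions, it was -7.30 at chr21:4407476-4411229, -3.82 at chr2:121898100-121903161, -2.63 at chr1:76988085-77010194, 5.38 at chr1:71400742-71448774 and 2.77 at chr2:102313605-102405919. The choice of these genes by calls in opposite directions favoured a large difference in advance. The part of library quality or batch in these differences was not tested.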

How the results depend on the processing

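The 68 calls (14 higher, 54 lower) became 69 with DESeq2 size factors and 71 with a stricter filter, which kept 14 of the higher and 53 of the lower genes. They became 116 (23 and 93) with no filter, 395 (117 and 278) with DESeq2, 150 (31 and 119) with only the 4 libraries and 139 (30 and 109) with only the 6 HH18 libraries; the cause was not tested. At an adjusted p below 0.01 there were 27 calls, and below 0.1 there were 113. Between DP and negative libraries of the same replicate number, the correlation of deviations was -0.010. With 2 libraries per group, this value cannot show whether same-numbered libraries came from the same embryos, so pairing was not tested. The replicate block marked the second library of each HH18 group and no library of the other stages. With it there were 62 calls in the fit of all libraries and 353 (91 and 262) in the 4 libraries. With each library left out in turn, calls ran from 20 to 60, higher genes from 0 to 9 and lower genes from 17 to 52. The stage difference was called for 2124 genes, for 3379 with DESeq2, for 1578 with the replicate block and for 570 to 2776 with a library left out, and the HH25 contrast for 1383 to 3631 with a library left out, against 3465. The numbers of lower and higher genes with a called stage difference ran from 7 to 16 and from 4 to 7 with a library left out, while those called again at HH25 ran from 29 to 35 and from 4 to 5. No fold change of the 4 genes named by identifier changed sign in any alternative. The stage difference of ENSGALG00000008615 had an adjusted p of 0.054 with the replicate block. Depth limits the low genes: the second negative library held 4032540 counts.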
